A study of Mus musculus with 12 samples.

Results

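Induced regulatory T cells (iTreg) were compared with natural regulatory T cells (nTreg) where both carried the KO label. The comparison took 3 iTreg KO and 3 nTreg KO libraries, chosen by their labels alone, out of 12 libraries in the series. The other 6 libraries, iTreg and nTreg with the WT label, gave the same cell type contrast in libraries that the KO contrast did not use. Regulatory T cells (Treg) restrain other immune cells and depend on the transcription factor Foxp3. Natural Treg acquire Foxp3 in the animal, mostly in the thymus, whereas induced Treg gain it when conventional CD4 T cells are stimulated in the presence of TGF-beta. Hrd1, encoded by Syvn1, is a membrane-bound ubiquitin ligase that sends misfolded proteins out of the endoplasmic reticulum (ER) for degradation, a process called ERAD. When misfolded proteins build up, 3 ER sensors, IRE1, ATF6 and PERK, switch on chaperones, ERAD components and, through ATF4, amino acid and redox genes.

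All animals were C57BL/6 mice aged 8 weeks, and all 4 groups carried a Cre-GFP fusion under the control of Foxp3. The KO label stands for animals with both Hrd1 alleles floxed. The WT label stands for animals with 1 floxed and 1 intact allele, so no group was free of a floxed allele. Natural Treg were CD4+GFP+ cells sorted directly from spleen and lymph nodes. Induced Treg came from CD4 T cells of the same organs, kept in IL-2 and TGF-beta for 5 days before GFP+ cells were isolated. Cre is present only once Foxp3 is switched on, which in cells that gain Foxp3 in culture is during the culture, and the labels name no removal of GFP+ cells before it. Fresh and cultured cells also differ in stimulation, and cell origin, culture and the time since Cre expression cannot be told apart in this design. The labels do not say that libraries with different numbers came from different mice, so each p-value measures the spread between libraries, which may be technical. In bulk RNA, fewer cells of a type and less RNA per cell cannot be told apart.

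Total counts ranged from 8609283 to 15462894 in the KO-labelled libraries. The first principal component of all 12 libraries, WT-labelled ones included, separated iTreg from nTreg and held 80.5% of the variance. Pearson correlations of log2 values were 0.975 to 0.985 within nTreg KO, 0.962 to 0.984 within iTreg KO and 0.807 to 0.866 between the groups. The iTreg KO library numbered 2 stood apart from its group, with the lowest Foxp3, Klf2 and Nrp1. Among KO-labelled libraries, nTreg KO numbered 3 held Xist at a raw CPM (the count scaled to the library's total) of 486, against at most 0.232 in any other, together with the Y-linked Ddx3y at 142. The other KO-labelled libraries held Ddx3y at 77.4 to 209. Among WT-labelled libraries, nTreg WT numbered 3 held Xist at 723 and Ddx3y at 102, and iTreg WT numbered 2 Xist at 2035 without Ddx3y. Where these genes differed within a group, its libraries did not all hold the same mice. The nTreg KO libraries, above all the one numbered 2, also held myeloid transcripts. The macrophage receptor gene Csf1r stood at 8.34, 195 and 34.5 CPM in nTreg KO and at 0, 0.106 and 0 CPM in iTreg KO. The summed raw CPM of 22 myeloid markers was 143 to 747 in nTreg KO and 42.0 to 65.0 in iTreg KO, where 12 markers, including Lyz2 and C1qa, had no read. The summed raw CPM of 14 B cell markers was 78.5 to 230 in nTreg KO and 89.1 to 123 in iTreg KO, with 3 of 6 tested markers lower in iTreg KO. Of the 14, Ms4a1 was at or under 1.19 raw CPM in nTreg KO and Cd79b at 10.1 to 12.5, against 0.207 to 1.18 in iTreg KO. The T cell genes Cd3e, Cd3g and Cd4 were detected in every library. CPM below are normalised by edgeR, and a change is the log2 fold change of iTreg KO over nTreg KO.

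Hrd1 itself, Syvn1 (chr19:6046576-6053712, plus strand, mm10), differed between the cell types although both carry the KO label. Its level was 146, 137 and 130 CPM in nTreg KO and 54.6, 73.1 and 63.1 CPM in iTreg KO. The groups did not overlap, which was so for 3948 of 12038 genes tested in the lower direction. The change was -1.11 (SE 0.17, adjusted p 1.25e-04, edgeR). In the WT-labelled libraries Syvn1 stood at 73.7 to 87.2 CPM in nTreg and 61.6 to 101 CPM in iTreg, a change of -0.01 that was not called (adjusted p 0.966). The nTreg KO libraries thus lay above all WT-labelled libraries, and the iTreg groups overlapped. The KO contrast minus the WT contrast was not called without a block. It was called in a fit blocked on the replicate number (-1.085, adjusted p 0.0201, edgeR). Gene totals cannot show which exons the reads came from, so these values do not check the deletion.

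Of 12038 genes tested, 3865 (32.1%) were higher and 3586 (29.8%) lower in iTreg KO at an adjusted p under 0.05 in edgeR's quasi-likelihood test. Against a fold of 2, the same fit called 1180 genes higher (9.8%) and 1087 lower (9.03%). The libraries of iTreg KO and nTreg KO did not overlap for 4103 genes in the higher and 3948 in the lower direction, so non-overlap was common. With the WT label, 4187 genes were higher in iTreg (34.8%) and 3663 lower (30.4%). Most cell type differences were found under both labels. Of the KO calls, 3541 higher genes (91.6% of them, and 84.6% of the WT calls) and 3141 lower genes (87.6% and 85.7%) were called the same way with the WT label. A further 324 genes were called higher and 427 lower with the KO label alone, of which only those called for the label difference itself, described further on, are shown to differ between the labels. No gene was called higher with the KO label and lower with the WT label, and 18 were called the other way round. Across the 12038 genes, which are not independent, the 2 contrasts had a Pearson correlation of 0.947 and a Spearman correlation of 0.940.

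**Figure D1:**
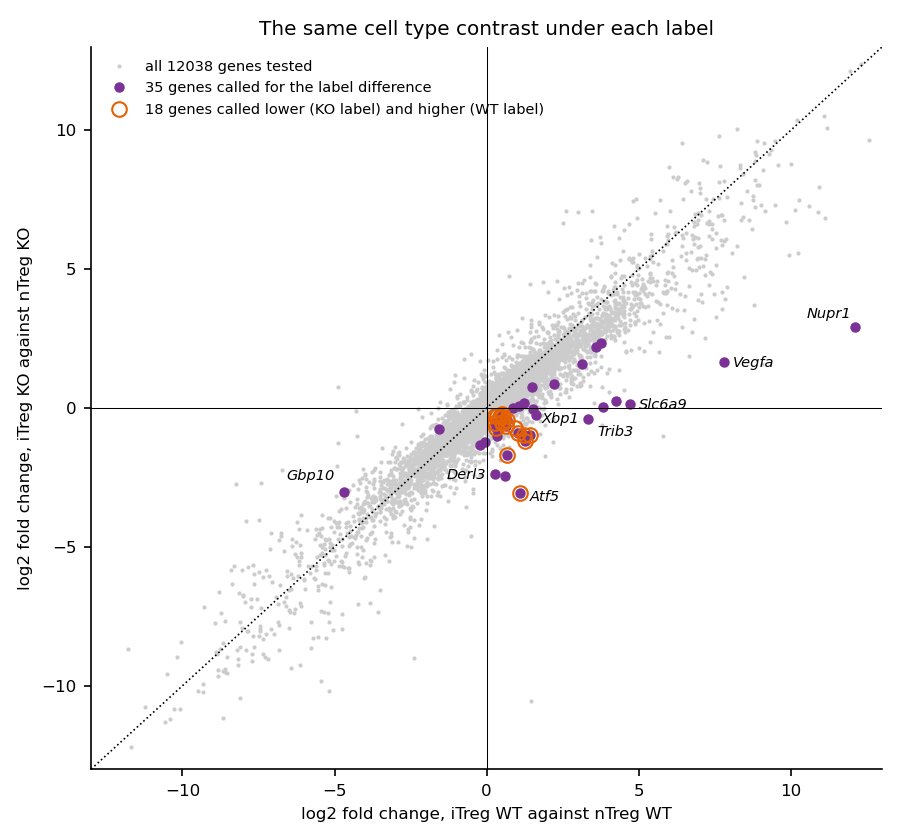
Each point is 1 of 12038 genes, with the log2 fold change of iTreg over nTreg in WT-labelled libraries on the x axis and in KO-labelled libraries on the y axis. Most genes lie along the dotted line of equality, and the 35 genes called for the label difference (purple) lie mainly below it. Genes with no reads in a group have fitted values that depend on the fitting, such as Nupr1 at the right.

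The Treg identity programme was divided. Foxp3 (chrX:7573644-7595245) was at 565, 613 and 668 CPM in nTreg KO and at 392, 191 and 375 CPM in iTreg KO, a change of -0.95 (SE 0.22, adjusted p 0.00236, edgeR). All 3 iTreg KO libraries lay below all 3 nTreg KO libraries, and the iTreg KO library numbered 2 was the lowest. The WT contrast for Foxp3 was -0.79. Il2ra, the high-affinity IL-2 receptor chain, went the other way, from 1071, 1221 and 1200 CPM in nTreg KO to 3592, 2445 and 2935 CPM in iTreg KO (change 1.36). Ctla4, an inhibitory receptor that strips costimulatory ligands from other cells, was at 720, 619 and 437 CPM in nTreg KO and at 235, 356 and 355 CPM in iTreg KO (change -0.91). Of 37 Treg signature genes, 20 were lower (54.1%) and 9 higher (24.3%) in iTreg KO, beside 29.8% and 32.1% over all genes. Their median change was -0.70, beside 0.01 over all genes. The 9 that rose included the ectoenzyme gene Nt5e (1.21), the checkpoint receptor gene Lag3 (0.94), the granzyme gene Gzmb (1.56) and the cytokine gene Tgfb1 (0.75). Tnfrsf18, Tnfrsf4 and Entpd1 were not called, with overlapping libraries.

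Genes that mark natural Treg were lower or not called, with a median change of -1.14 over 7 marks. Ikzf2, which encodes the transcription factor Helios (chr1:69531214-69687245), was at 796, 975 and 874 CPM in nTreg KO and at 21.3, 34.5 and 26.8 CPM in iTreg KO, a change of -5.00 (SE 0.21, adjusted p 2.88e-08, edgeR). Itgb8, the integrin chain that frees active TGF-beta, fell by 5.57 on the log2 scale, and Lrrc32, which holds latent TGF-beta on the Treg surface, by 2.59. Swap70 (-2.09) and the receptor gene Gpr83 (-1.14) were also lower. Of the 7 natural Treg marks, 4 were lower (57.1%, beside 29.8% over all genes), none was higher, and the same 4 were lower with the WT label. Nrp1, a surface receptor often used to tell natural from induced Treg, was not among them. Its level was 240, 221 and 227 CPM in nTreg KO and 290, 62.3 and 255 CPM in iTreg KO, a change of -0.18 (adjusted p 0.696, edgeR). Without the iTreg KO library numbered 2 Nrp1 was called higher in iTreg KO (0.25, adjusted p 0.0498, edgeR).

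**Figure D2:**
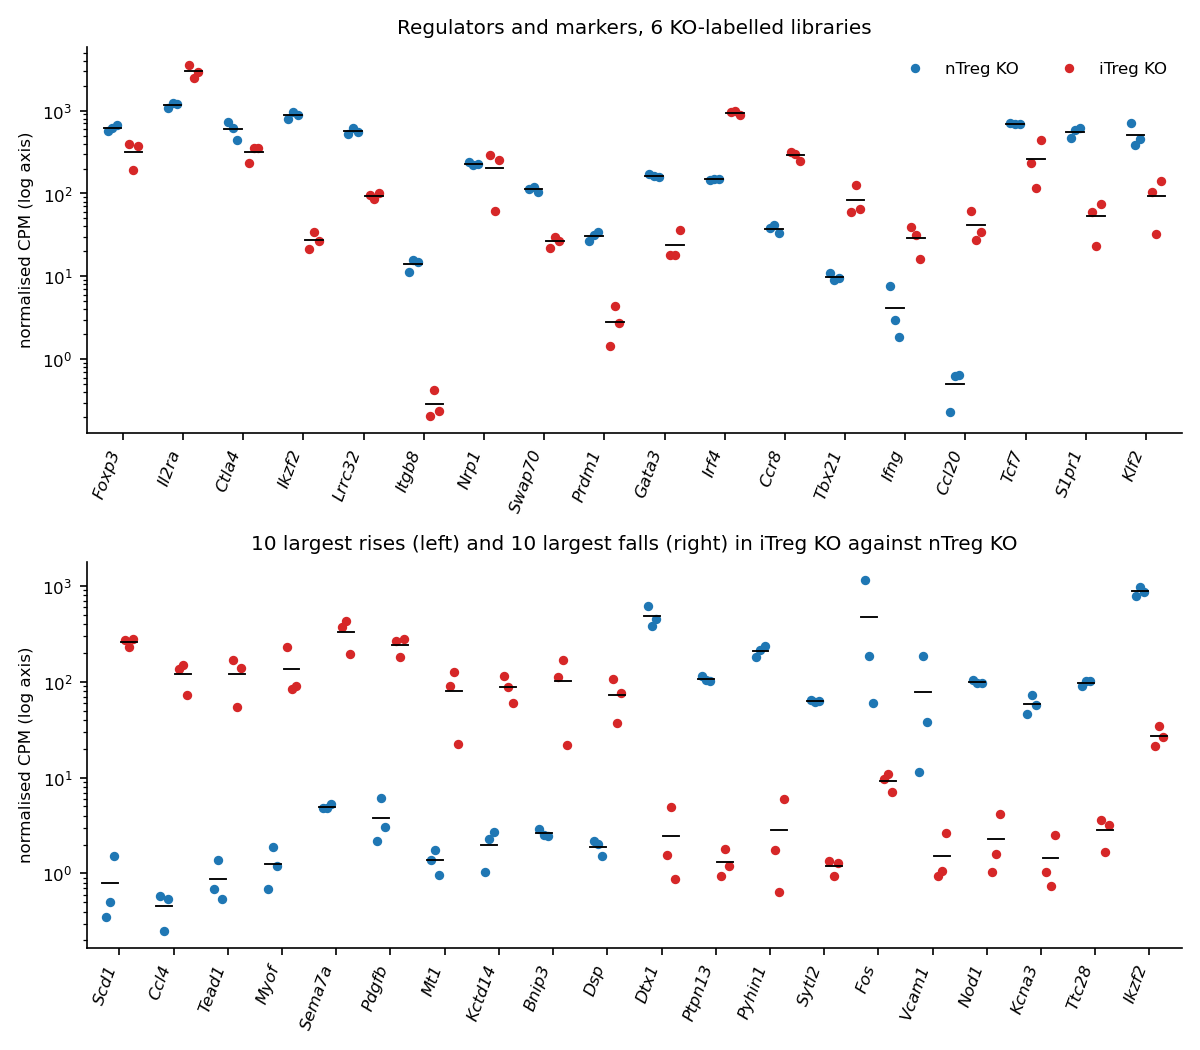
Normalised CPM on a log axis in each nTreg KO (blue) and iTreg KO (red) library, with a bar at the mean of each group. The upper panel shows regulators and markers, where Ikzf2, Lrrc32 and Itgb8 separate the cell types while Nrp1 overlaps, and the lower panel the 10 largest rises and 10 largest falls among genes whose mean log2 CPM reached 3.

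Effector Treg genes included rises and falls. Irf4, a transcription factor that follows antigen receptor strength, was at 146, 148 and 151 CPM in nTreg KO and at 964, 978 and 893 CPM in iTreg KO (change 2.67). Ccr8, a chemokine receptor of activated Treg, rose by 2.93 and the inhibitory receptor gene Pdcd1 by 1.46. In contrast Prdm1, encoding Blimp-1, fell by 3.43, Batf by 1.71 and the IL-33 receptor gene Il1rl1 by 4.29. Klrg1, a marker of terminally matured Treg, was at 27.7, 30.2 and 34.3 CPM in nTreg KO, while iTreg KO held 0, 0.211 and 0 CPM. Of 24 genes of effector maturation, 9 were lower (37.5%) and 6 higher (25.0%), beside 29.8% and 32.1% over all genes. The cytokine gene Il10 was at 7.88, 7.69 and 4.96 CPM in nTreg KO and at 1.04, 7.18 and 0.477 CPM in iTreg KO, and was not called (-1.27, adjusted p 0.169, edgeR). The level in the iTreg KO library numbered 2 reached that of nTreg KO, and the other iTreg KO libraries did not. The WT contrast for Il10 was -4.88, and the label difference of 3.62 was not called without a block. It was called with the replicate number as a block (3.58, adjusted p 0.00768, edgeR).

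Among genes of helper T cell lineages, the Th1 list had more members higher than lower in iTreg KO. Tbx21, which encodes the Th1 regulator T-bet, was at 11, 9.07 and 9.60 CPM in nTreg KO and at 59.3, 127 and 65.5 CPM in iTreg KO, a change of 3.09 (SE 0.29, adjusted p 3.59e-06, edgeR). Ifng, the Th1 cytokine, was at 7.65, 2.96 and 1.83 CPM against 39.1, 31.4 and 16.1 CPM (change 2.82). Neither gene overlapped between the groups, which was so for 4103 of 12038 genes tested in the higher direction. The WT contrasts were smaller, at 1.73 for Tbx21 and 0.99 for Ifng, where the latter was not called. Their label differences, 1.36 and 1.84, were not called without a block (adjusted p 0.298 and 0.7, edgeR) and were called with the replicate number as a block (1.32, adjusted p 0.0217, and 2.04, adjusted p 0.0327). Of 20 Th1 genes, 10 were higher and 5 lower with the KO label, against 6 and 6 with the WT label. Over all genes, 32.1% were higher and 29.8% lower with the KO label, and 34.8% and 30.4% with the WT label. Only the higher count with the KO label exceeded its share over all genes. No gene of the Th1 list was called for the label difference without a block, and the blocked fit called 5 above 0 and 1 below. The IL-12 receptor chain Il12rb2 rose by 3.77 and Tnf by 2.15, while Stat4, the transducer of IL-12 signals, fell by 2.35 and the interferon-gamma receptor chain Ifngr1 by 1.36.

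The Th2 and Th17 lists had shares near those over all genes, 32.1% higher and 29.8% lower. Gata3, the Th2 regulator that natural Treg also use, was at 170, 161 and 157 CPM in nTreg KO and at 18.1, 18.1 and 36.4 CPM in iTreg KO (change -2.74). Il9 had no read in nTreg KO and 4.37 to 5.70 CPM in iTreg KO, at least 55.0-fold higher against a floor of 3 counts over the group. Of 12 Th2 genes, 4 were higher and 4 lower (33.3% each). Among Th17 genes, the cytokine gene Il17f rose by 7.24 and the chemokine gene Ccl20 by 6.26. Ccl20 was at 0.232, 0.630 and 0.647 CPM in nTreg KO and at 62.1, 27.6 and 33.9 CPM in iTreg KO, with no overlap. Of 11 Th17 genes, 4 were higher (36.4%) and 3 lower (27.3%). Of 14 follicular T cell genes, 6 were lower (42.9%) and 2 higher (14.3%). The lower ones included Tox2 (-3.72), Slamf6 (-3.32) and Cxcr5 (-1.83), and the higher ones were Pdcd1 and Cd40lg. The Cd40lg call was lost in 4 of 6 fits that left out 1 KO-labelled library (adjusted p up to 0.133, edgeR), leaving 1 higher.

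Genes of resting T cells and of recirculation were lower in iTreg KO. S1pr1, the receptor for exit from lymph nodes, was at 471, 581 and 615 CPM in nTreg KO and at 60.3, 23.1 and 75.1 CPM in iTreg KO (change -3.39). Klf2, the transcription factor that maintains S1pr1, fell by 2.47. Tcf7, a regulator of naive and memory T cells, fell by 1.40. Of 29 naive and quiescence genes, 21 were lower (72.4%) and 5 higher (17.2%), beside 29.8% and 32.1% over all genes. Their median was -1.39. The 5 that were higher were Igfbp4, Ramp1, Bach2, Ccr7 and Foxp1, of which Ramp1 and Foxp1 lost the call without the iTreg KO library numbered 1 and without that numbered 3, leaving 3 higher. Of 28 chemokine receptor and homing genes, 19 were lower (67.9%) and 5 higher (17.9%). The gut-homing receptor gene Ccr9 was at 14.3, 14.1 and 17.5 CPM in nTreg KO and at 0, 0 and 0.0795 CPM in iTreg KO. Ccr2 was lower by 8.02 and the gut integrin chain Itgb7 by 2.24. Cx3cr1 (4.98), Ccr8, Itgav (1.04), Ccr4 (0.79) and Ccr7 (0.75) were higher, and the Ccr4 call was lost in 4 of 6 fits that left out 1 KO-labelled library (adjusted p up to 0.164, edgeR). Ccr2 and Ccr3 are also made by myeloid cells. Ccr3, at 1.85, 32.2 and 9.28 CPM in nTreg KO, was highest in the library richest in Csf1r, and the part of those cells in its fall was not tested.

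Antigen receptor signalling genes were mostly lower. Of 35 such genes 20 were lower (57.1%) and 3 higher (8.57%), beside 29.8% and 32.1% over all genes. Their median was -0.39. The lower ones included the receptor chain Cd3g (-0.98), the kinase Prkcq (-1.44) and the diacylglycerol kinase Dgka (-1.41). The 3 that rose were Ubash3b (1.78), Malt1 (0.94) and Nfatc2 (0.38), the last lost in 4 of 6 fits that left out 1 KO-labelled library (adjusted p up to 0.159, edgeR). Immediate early genes included members far higher in each group. Fos was at 1167, 187 and 60.0 CPM in nTreg KO and at 9.71, 11 and 7.15 CPM in iTreg KO, and Dusp1 at 927, 183 and 144 against 13.2, 16.7 and 10.5 CPM. Both were much higher in the nTreg KO library numbered 1 than in those numbered 2 and 3. On the other side Fosl1 rose by 6.35, Nr4a3 by 2.05 and Egr2 by 0.92. Of 28 genes of this list, 10 were lower (35.7%) and 9 higher (32.1%), near the shares over all genes of 29.8% and 32.1%. In the IL-2 group, Lta (3.65), Il2 (3.25) and Socs2 (1.94) were higher and Jak1 (-0.97) and Il2rb (-0.59) lower, with 6 of 18 each way (33.3%, near the shares over all genes).

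TGF-beta pathway genes also went both ways, with 10 of 24 higher and 10 lower (41.7% each), beside 32.1% and 29.8% over all genes. The feedback inhibitor Pmepa1, a direct target of TGF-beta, was at 50.8, 57.1 and 49.4 CPM in nTreg KO and at 290, 278 and 260 CPM in iTreg KO (change 2.39). Furin, the protease that cuts the TGF-beta precursor, rose by 1.90 and Skil by 0.65. The receptor chain Tgfbr2 (-0.57), the signal transducers Smad2 (-0.35), Smad3 (-0.83) and Smad4 (-0.54) and the inhibitor Smad7 (-0.94) were lower. Of 17 TNF receptor family genes, 8 were lower (47.1%, beside 29.8% over all genes), including Cd27 (-2.14). The 3 higher (17.6%, beside 32.1%) were Cd40 (5.90), Tnfrsf13b (2.11) and Tnfrsf9 (1.26). Tnfrsf9 lost its call in 4 of 6 fits that left out 1 KO-labelled library, with an adjusted p of up to 0.228 without the iTreg KO library numbered 2.

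Interferon-stimulated genes were lower as a group. Of 34 genes that type I interferon induces, 27 were lower (79.4%, beside 29.8% over all genes) and none higher with the KO label. Their median was -2.31. With the WT label 29 were lower and none higher. Irf7, the amplifier of the response, was at 72.7, 67.4 and 81.7 CPM in nTreg KO and at 6.78, 3.38 and 7.95 CPM in iTreg KO. The antiviral gene Mx1 was at 14.7, 11.4 and 15.9 CPM against 0.209, 0.211 and 1.11 CPM. Guanylate-binding proteins and related GTPases, which interferon-gamma also induces, were divided. Of 17, 8 were lower (47.1%) and 6 higher (35.3%), beside 29.8% and 32.1% over all genes. Gbp7 (-3.58) and Gbp8 (-4.33) were lower, and Iigp1 (1.39), Gbp2 (1.14), Igtp (1.05), Irgm1 (0.74), Ifi47 (0.68) and Tgtp1 (1.22) higher. Tgtp1 and Tgtp2 are near-identical copies, so their values are uncertain.

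Proliferation genes rose almost without exception. Mki67, a marker of cycling cells, was at 190, 177 and 190 CPM in nTreg KO and at 1451, 1049 and 1288 CPM in iTreg KO, a change of 2.76 (SE 0.19, adjusted p 3.63e-07, edgeR). All 48 genes of DNA replication and S phase tested were higher, with a median of 2.07. So were 47 of 50 genes of mitosis and G2/M (94.0%, beside 32.1% over all genes), with a median of 3.01. The WT medians were 2.50 and 3.83. Ccnb1, the mitotic cyclin, rose by 4.06, its kinase Cdk1 by 3.85 and the helicase subunit Mcm6 by 1.84. Pttg1 (-1.01), whose product restrains separase, and Smc4 (-0.79), a condensin subunit, were lower under both labels, and Cdc25b was not called. The cell cycle inhibitor Cdkn1a rose by 4.50, from 10.7, 8.06 and 6.37 CPM to 149, 326 and 89.0 CPM, while Cdkn1b (-1.03) and the pocket protein gene Rbl2 (-1.61) fell. With the replicate number as a block, 12 mitosis genes and 8 S phase genes had a smaller contrast under the KO than under the WT label, Mki67 among them (-0.91, adjusted p 0.0427, edgeR). Without a block no gene of either list was called for that difference.

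Since the mitosis genes moved together, their promoters were searched for the cell cycle homology region (letters TTTGAA) and the CCAAT box (letters CCAAT), elements known from genes that peak in G2 and mitosis. Both strands of the 250 bases before each RefSeq start (GRCm38.p6) were read. The homology region was found in 17 of 44 windows of the mitosis list (38.6%). It was found in 10.5% of the 11044 windows of tested genes and in 16.0% of all 32851 windows. The CCAAT box was found in 72.7%, against 35.4% in windows of tested genes and 33.8% in all windows. Both together were found in 34.1%, against 4.0% and 5.55%. In the S phase list the shares were 15.6%, 60.0% and 11.1%. A match is a run of letters and not a measured site. Parts of 4 promoters are shown because their genes, all higher in iTreg KO, hold both motifs close to each other, and capitals mark the TTTGAA and CCAAT letters on either strand.
Cdc20, chr4:118437344-118437436, minus strand: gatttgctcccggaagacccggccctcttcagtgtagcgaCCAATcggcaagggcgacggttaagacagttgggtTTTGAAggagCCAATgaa
Espl1, chr15:102296209-102296292, plus strand: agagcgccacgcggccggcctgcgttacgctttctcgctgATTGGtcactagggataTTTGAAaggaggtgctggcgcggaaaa
Kif11, chr19:37376297-37376381, plus strand: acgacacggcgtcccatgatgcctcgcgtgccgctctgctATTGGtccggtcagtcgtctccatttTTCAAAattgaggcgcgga
Prc1, chr7:80294374-80294475, plus strand: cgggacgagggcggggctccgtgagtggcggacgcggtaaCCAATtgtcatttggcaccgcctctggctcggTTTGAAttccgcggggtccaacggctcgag
Cdc20, the activator of the anaphase-promoting complex, rose by 3.31 with the KO label and 4.22 with the WT label. The separase gene Espl1 rose by 2.97 and 4.14, the spindle motor gene Kif11 by 3.03 and 3.96, and the spindle midzone gene Prc1 by 2.80 and 3.39. In nTreg KO these genes ran from 13.9 CPM (Espl1) to 58.2 CPM (Kif11), and in iTreg KO from 127 CPM (Espl1) to 399 CPM (Kif11).

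Metabolic genes rose with them. Scd1, the desaturase that makes monounsaturated fatty acids (chr19:44394455-44407879), was the largest rise by the naming rule. It was at 0.348, 0.504 and 1.51 CPM in nTreg KO and at 271, 229 and 279 CPM in iTreg KO (change 8.41, SE 0.38, adjusted p 3.48e-08, edgeR). Of 31 genes of cholesterol and fatty acid synthesis, 30 were higher (96.8%, beside 32.1% over all genes) and none lower, with a median of 1.26. Among them were the sterol enzymes Cyp51 (2.30), Sqle (1.79) and Hmgcs1 (1.58). Of 35 glycolysis and HIF1 genes, 24 were higher (68.6%) and 1 lower (2.86%), with a median of 1.79. Ldha, which turns pyruvate into lactate, was at 493, 430 and 500 CPM against 2852, 3600 and 1980 CPM. Bnip3 and Egln3, both targets of hypoxia-inducible factor, rose by 5.27 and 5.07, while Hif1a itself did not differ beyond its spread (0.03, adjusted p 0.785, edgeR). Many genes of this list were highest in the iTreg KO library numbered 2, such as the glucose transporter Slc2a1 at 165, 526 and 109 CPM, against 63.8, 52.0 and 60.3 CPM in nTreg KO. Without both KO-labelled libraries numbered 2, an alternative added after the data were seen, 15 of the list were higher. Pgk1, Pgam1, Tpi1 and Gapdh have many processed copies in the genome, so their counts are uncertain.

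Oxidative phosphorylation and the mitochondrial ribosome followed, with 49 of 54 (90.7%) and 30 of 35 genes (85.7%) higher, beside 32.1% over all genes. The medians were 0.72 and 0.66. Of 36 ribosome biogenesis genes 27 were higher (75.0%), including nucleophosmin Npm1 (1.17), and 17 were higher without the nTreg libraries numbered 2. Of 51 cytosolic ribosomal protein genes 29 were higher (56.9%), and 19 without both KO-labelled libraries numbered 2. Proteasome genes were higher in 32 of 36 cases (88.9%), with a median of 0.92. Psmc1, an ATPase of the base, was at 69.8, 74.8 and 74.5 CPM in nTreg KO and at 150, 174 and 152 CPM in iTreg KO. The lower gene was the immunoproteasome subunit Psmb10 (-0.83). Myc, the growth regulator, rose by 0.87, from 318, 242 and 268 CPM to 604, 463 and 450 CPM. Survival genes of the BCL2 family were divided, with Bcl2l1 (0.93) higher and Mcl1 (-0.77), Bcl2 (-0.81) and the death promoter Bcl2l11 (-2.37) lower.

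**Figure D3:**
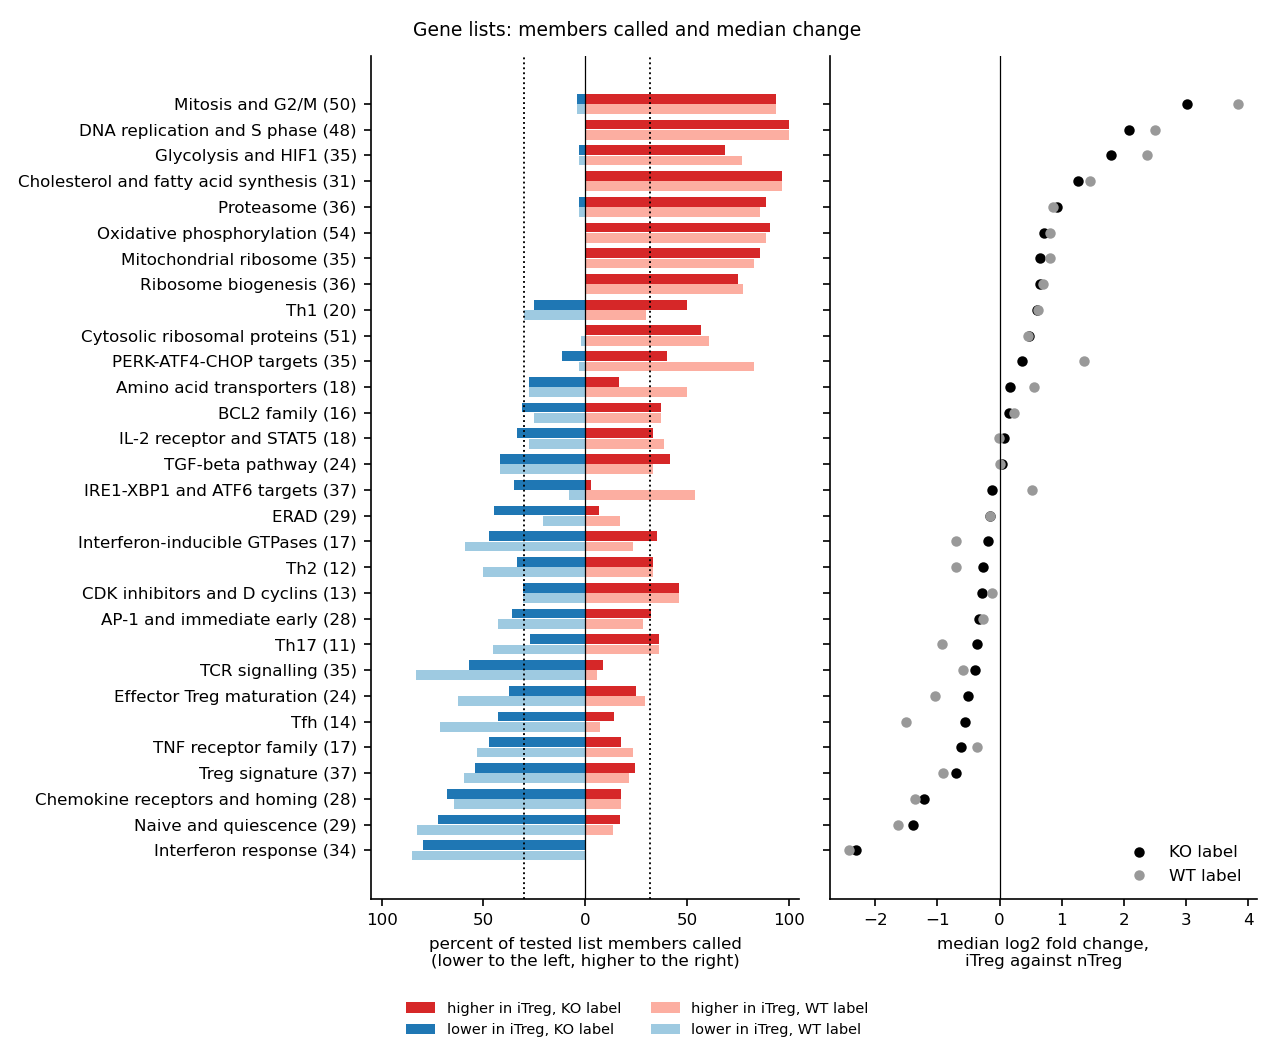
For each gene list (tested members in brackets), the left panel gives the percent of members called higher (right) or lower (left) in iTreg, and the right panel their median log2 fold change, for the KO and the WT label. Dotted lines mark the shares over all genes with the KO label, 32.1% higher and 29.8% lower, and the IRE1-XBP1 and ATF6 list has 1 member higher and 13 lower with the KO label against 20 and 3 with the WT label.

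Other large rises by the naming rule were the chemokine gene Ccl4 (8.12), the Hippo pathway transcription factor Tead1 (6.96), Myof (6.62), Sema7a (6.07), Pdgfb (5.92), the metallothionein Mt1 (5.79), Kctd14 (5.41), the desmosome gene Dsp (5.25), Unc13a (5.03), Emp1 (4.89), Ctla2a (4.87) and Rai14 (4.79). Sema7a was at 4.87, 4.79 and 5.29 CPM in nTreg KO and at 378, 428 and 195 CPM in iTreg KO. By the same rule, which takes genes whose mean log2 CPM over the KO-labelled libraries reached 3, the largest falls were Dtx1 (-7.67), a Notch pathway ubiquitin ligase, the phosphatase Ptpn13 (-6.36), Pyhin1 (-6.13), Sytl2 (-5.70), Fos (-5.67), Vcam1 (-5.62), the innate sensor Nod1 (-5.37), the potassium channel Kcna3 (-5.27), Ttc28 (-5.10), Fosb (-4.98), Dusp1 (-4.96), the Ras activator Rasgrp2 (-4.85), Abcg3 (-4.73) and Sh3pxd2a (-4.73). Dtx1 was at 621, 387 and 450 CPM in nTreg KO and at 1.57, 4.96 and 0.874 CPM in iTreg KO. In all 15 rises and 15 falls, Ikzf2 included, the libraries of the groups did not overlap, which the naming rule required. Vcam1, at 11.4, 188 and 38 CPM in nTreg KO, rose and fell with Csf1r across those libraries, and the part of other cells in its change was not tested. Of 18 tested myeloid markers 17 were lower in iTreg KO (94.4%, beside 29.8% over all genes).

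The ER stress genes gave different counts with the KO and the WT label. Under the WT label, 20 of 37 IRE1-XBP1 and ATF6 targets were higher in iTreg and 3 lower, with a median of 0.53. Over all genes, 34.8% were higher and 30.4% lower with that label. Under the KO label 1 was higher (2.7%) and 13 lower (35.1%), with a median of -0.12. Over all genes the KO shares were 32.1% higher and 29.8% lower, so the lower share was near that over all genes. Of 35 PERK-ATF4-CHOP targets, 29 were higher and 1 lower with the WT label (median 1.35), against 14 higher and 4 lower with the KO label (median 0.35). For ERAD genes the counts were 5 higher and 6 lower of 29 with the WT label, and 2 (6.9%) and 13 (44.8%) with the KO label. The ERAD median was -0.15 under both labels, with 11 changes above 0 and 18 below under each. Single ERAD genes still changed in size, since 20 of the 29 label differences lay below 0. Without a block 2 of them were called, both below 0, and the blocked fit called 4, all below 0. The 13 lower IRE1-XBP1 and ATF6 targets became 8 without the nTreg KO library numbered 2 or without the iTreg KO library numbered 3. The 14 higher PERK-ATF4-CHOP targets became 23 without the libraries numbered 3 and 9 without both KO-labelled libraries numbered 2.

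**Figure D4:**
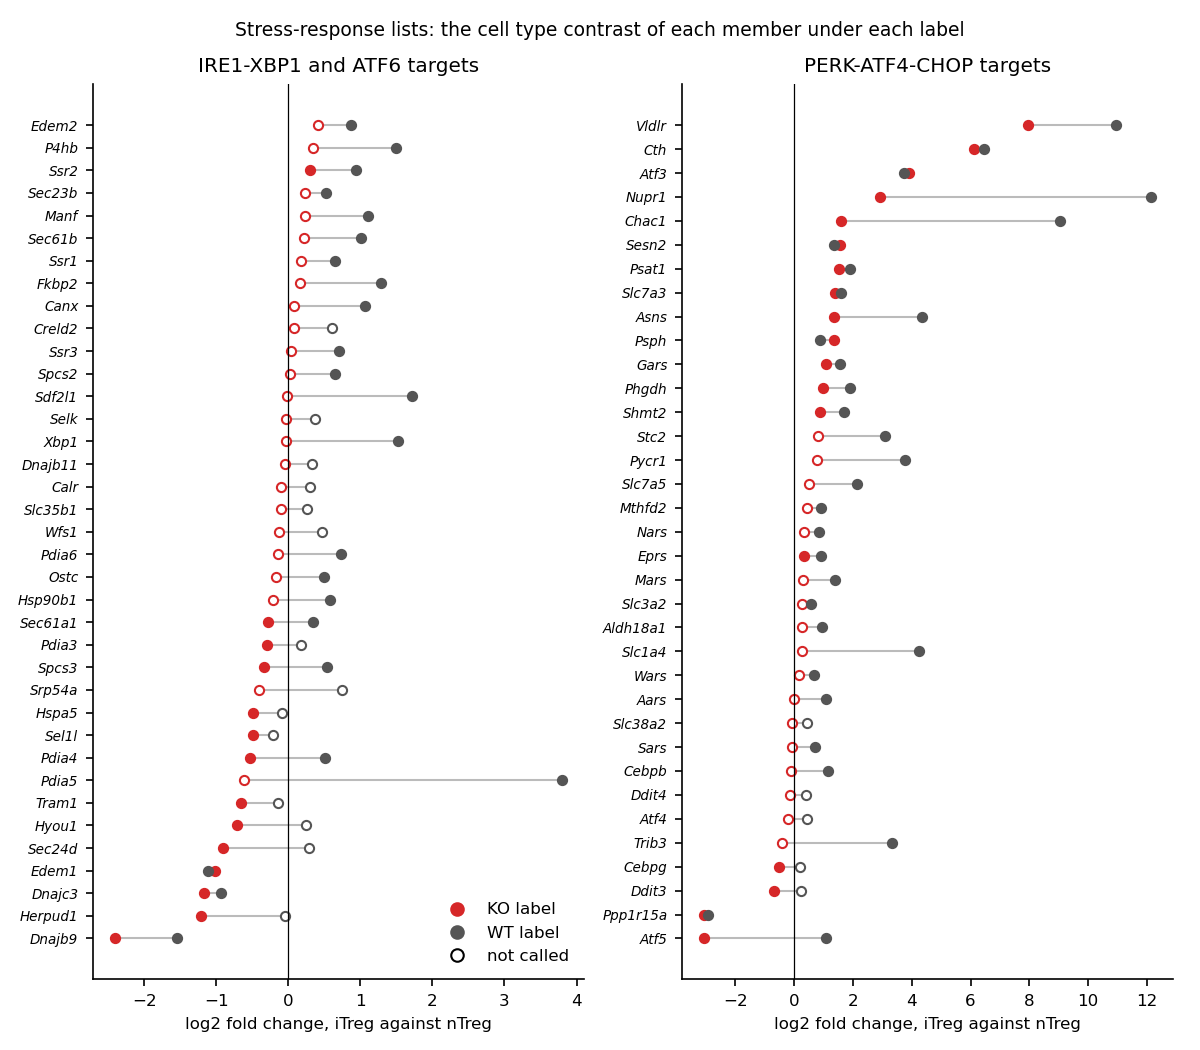
Each row is a gene of the IRE1-XBP1 and ATF6 list (left) or the PERK-ATF4-CHOP list (right), with its log2 fold change of iTreg over nTreg for the KO label (red) and the WT label (grey) on the x axis and open circles where it was not called. Most red points lie to the left of their grey point, and Nupr1 and Chac1 had no read in nTreg WT, so the WT values of those genes are no measure of size.

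The label difference, the KO contrast minus the WT contrast, was tested directly. It was called for 35 genes, of which 2 (0.0166% of genes tested) had a KO contrast above the WT contrast and 33 (0.274%) below, at an adjusted p under 0.05 in edgeR. The unadjusted p was under 0.05 for 896 genes. Within each cell type, same-numbered WT-labelled and KO-labelled libraries deviated together. A fit blocked on that number called 217 genes, 41 above and 176 below, the 35 among them. Leaving out 1 of the 12 libraries gave 1 call (without nTreg WT numbered 3) to 58 calls (without iTreg KO numbered 2). Of the 37 IRE1-XBP1 and ATF6 targets 3 were called below without a block and 13 with it, and of the 35 PERK-ATF4-CHOP targets 4 and 13.

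Atf5, which ATF4 induces and which itself encodes a transcription factor (chr7:44812256-44816658), had the smallest p. In KO-labelled libraries it was at 236, 265 and 261 CPM in nTreg and at 37.6, 33.1 and 21.8 CPM in iTreg, a change of -3.05. In WT-labelled libraries it was at 6.35, 4.53 and 4.56 CPM in nTreg and at 11.9, 9.87 and 11.2 CPM in iTreg, a change of 1.11. The label difference was -4.15 (adjusted p 4.21e-05, edgeR). Both KO groups lay above both WT groups, and nTreg KO lay farthest above.

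Xbp1, whose spliced form is the transcription factor downstream of IRE1 (chr11:5520659-5525893), was at 367, 405 and 370 CPM in nTreg KO and at 440, 368 and 311 CPM in iTreg KO, and was not called (-0.03, adjusted p 0.865, edgeR). In WT-labelled libraries it was at 89.8, 90.0 and 101 CPM in nTreg and at 288, 289 and 230 CPM in iTreg (change 1.52). The cell types overlapped with the KO label and were apart with the WT label, and the label difference was -1.55 (adjusted p 0.012). Gene counts do not separate spliced from unspliced Xbp1. Herpud1, an ERAD component that binds Hrd1, was at 395, 393 and 443 CPM in nTreg KO against 187, 198 and 145 CPM in iTreg KO, with a label difference of -1.18. Derl3, which helps move proteins out of the ER, was at 86.7, 94.5 and 66.7 CPM in nTreg KO and at 20.8, 14.3 and 10.1 CPM in iTreg KO. In both WT groups Derl3 was at or under 2.48 CPM, and its label difference was -3.06. Derl3 was thus lower in iTreg KO than in nTreg KO but above both WT groups.

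The ER chaperone genes differed among themselves. Hspa5, which encodes BiP, was at 2701, 2506 and 2103 CPM in nTreg KO and at 1853, 2061 and 1306 CPM in iTreg KO. The call (-0.49, adjusted p 0.0344, edgeR) was lost in 4 of 6 fits that left out 1 KO-labelled library, with an adjusted p of up to 0.121. In WT-labelled libraries Hspa5 was at 505 to 766 CPM in nTreg and at 542 to 605 CPM in iTreg, below every KO library. Canx, the lectin chaperone calnexin, did not differ with the KO label (0.08) and rose with the WT label (1.07), with a label difference of -0.99 that was called. Hyou1, a co-chaperone, fell by 0.72, the BiP co-factor Dnajb9 by 2.40, its relative Dnajc3 by 1.17, and the mannosidase-like Edem1 by 1.02. Ssr2, part of the translocon-associated complex, was the 1 higher gene (0.31), and lost its call in 5 of 6 fits that left out 1 KO-labelled library.

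The promoters of the IRE1-XBP1 and ATF6 list were searched in the same way for the ER stress response element (ERSE, letters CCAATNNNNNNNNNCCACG), whose first letters are also a CCAAT box. It was found in 7 of 32 windows (21.9%), which belong to Calr, Canx, Creld2, Dnajc3, Hsp90b1, Hspa5 and Pdia6. Windows of tested genes held it in 0.145% of cases and all windows in 0.113%. Sequences of 4 are shown because the same element stands before genes whose contrasts differed, and capitals mark its fixed letters.
Hspa5, chr2:34771985-34772083, plus strand: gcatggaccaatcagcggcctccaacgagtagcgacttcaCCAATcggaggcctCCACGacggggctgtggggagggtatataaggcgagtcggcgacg
Canx, chr11:50325760-50325858, minus strand: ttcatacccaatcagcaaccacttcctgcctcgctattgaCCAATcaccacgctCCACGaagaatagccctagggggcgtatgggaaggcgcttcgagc
Dnajc3, chr14:118937787-118937885, plus strand: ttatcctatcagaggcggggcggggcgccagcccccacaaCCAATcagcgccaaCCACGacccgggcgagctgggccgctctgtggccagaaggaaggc
Pdia6, chr12:17266451-17266549, plus strand: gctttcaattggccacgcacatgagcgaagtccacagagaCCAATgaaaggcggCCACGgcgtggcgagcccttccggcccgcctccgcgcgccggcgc
Of the 7 genes with the element, Dnajc3 and Hspa5 were lower in iTreg KO, and the others were not called, with changes from -0.21 (Hsp90b1) to 0.08 (Canx and Creld2). With the WT label Canx (1.07), Pdia6 (0.73) and Hsp90b1 (0.58) were higher in iTreg, and Dnajc3 (-0.93) lower. Pdia6, a disulfide isomerase, was at 606, 638 and 562 CPM in nTreg KO, 564, 676 and 396 CPM in iTreg KO, 109 to 116 CPM in nTreg WT and 181 to 197 CPM in iTreg WT. Its label difference was not called without a block (-0.87, adjusted p 0.185, edgeR) and was called with it (-0.90, adjusted p 0.0327).

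**Figure D5:**
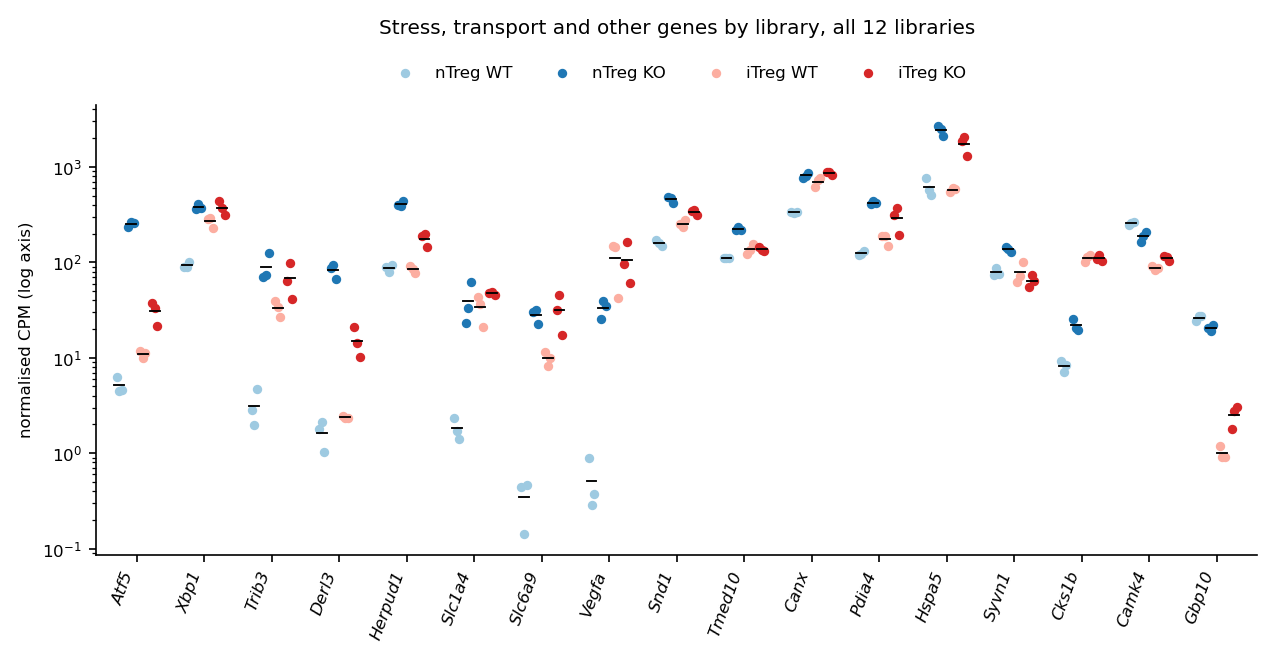
Normalised CPM on a log axis in all 12 libraries for 17 genes of stress response, transport and cell cycle, with a bar at the mean of each group. For Atf5, Derl3, Herpud1 and Trib3 the nTreg KO libraries (dark blue) lie far above nTreg WT (light blue), while the iTreg groups (red shades) lie closer together.

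In the PERK-ATF4-CHOP branch, several genes that were near absent from nTreg WT were at similar levels in both KO groups. Trib3, a pseudokinase that ATF4 induces, was at 70.7, 72.9 and 125 CPM in nTreg KO and at 63.9, 98.0 and 41.5 CPM in iTreg KO. In nTreg WT it was at 1.98 to 4.65 CPM and in iTreg WT at 26.5 to 39.7 CPM. The KO groups overlapped, the WT groups did not, and the label difference was -3.75 (adjusted p 0.012, edgeR). The amino acid transporter genes Slc1a4 and Slc6a9 also overlapped between the KO groups and not between the WT groups, with KO contrasts of 0.27 and 0.15, WT contrasts of 4.25 and 4.72, and label differences of -3.98 and -4.57. Of 18 amino acid transporter genes, 3 were higher (16.7%) and 5 lower (27.8%) with the KO label, beside 32.1% and 29.8% over all genes. With the WT label 9 were higher and 5 lower. Serine synthesis genes rose under both labels, Phgdh by 0.97 and 1.90 and Psat1 by 1.52 and 1.89. For Phgdh the label difference was not called without a block and was called with the replicate number as a block (-0.92, adjusted p 0.0244, edgeR). Cth, an enzyme of cysteine synthesis, rose by 6.12 and 6.46. Atf4 itself was not called with the KO label (-0.19) or the WT label (0.46). Ddit3, which encodes CHOP, was at 89.9, 88.0 and 112 CPM in nTreg KO and at 53.0, 82.1 and 48.2 CPM in iTreg KO (-0.66, adjusted p 0.0246, edgeR), a call lost in 3 of 6 fits that left out 1 KO-labelled library. Of the sensors, Atf6 (-0.75) and Ern1 (-1.22), which encodes IRE1, were lower in iTreg KO, and Eif2ak3, which encodes PERK, was not called (-0.04). The label difference of Eif2ak3 was not called without a block and was called with the replicate number as a block (-0.79, adjusted p 0.00913, edgeR).

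The 18 genes lower in iTreg with the KO label and higher with the WT label were looked at after their values were seen. They are Atf5, Bet1, Cmtm7, Creb3l2, Igsf3, Larp1b, Lman2, Mmp11, Pdia4, Prkar1b, Rasgef1a, Sec61a1, Snd1, Soat2, Spcs3, Surf4, Tmed10 and 4921525O09Rik. Sec61a1 is the channel through which proteins enter the ER, Spcs3 a signal peptidase subunit, Lman2, Surf4 and Tmed10 cargo receptors, Bet1 a vesicle fusion protein and Creb3l2 an ER-bound transcription factor. Tmed10 was at 218, 234 and 218 CPM in nTreg KO and at 145, 134 and 133 CPM in iTreg KO (-0.71), against 112, 110 and 112 CPM in nTreg WT and 123, 135 and 156 CPM in iTreg WT (0.31). The iTreg groups overlapped, and nTreg KO stood above all other groups. Snd1 went from a KO contrast of -0.44 to a WT contrast of 0.67, and Surf4 from -0.53 to 0.28. The label difference was called for 12 of the 18 without a block and for 15 with it. Cmtm7, Creb3l2, Lman2, Pdia4, Rasgef1a, Sec61a1 and Spcs3 lost the KO call in 3 to 5 of 6 fits that left out 1 KO-labelled library.

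Outside these groups, the cell cycle gene Cks1b was higher in iTreg under both labels, by 2.35 with the KO label and 3.76 with the WT label (difference -1.41, adjusted p 0.012, edgeR). Its iTreg levels were 104 to 119 CPM with the KO label and 102 to 119 CPM with the WT label, so the groups differed in nTreg, at 19.5 to 25.4 and 7.08 to 9.16 CPM. Vegfa, an angiogenic factor that hypoxia and ATF4 induce, had contrasts of 1.67 and 7.80. Its iTreg levels overlapped, at 60.7 to 164 CPM with the KO label and 41.8 to 149 CPM with the WT label. In nTreg it was at 25.7 to 39.1 CPM with the KO label and 0.283 to 0.886 CPM with the WT label. The nTreg WT libraries held 12 Vegfa reads in all, so the size of the WT contrast is uncertain. The 2 genes whose KO contrast lay above the WT contrast were Camk4 (-0.75 against -1.56), a calcium-dependent kinase, and Gbp10 (-3.01 against -4.70), an interferon-induced GTPase. Camk4 was at 165, 191 and 208 CPM in nTreg KO and at 116, 114 and 104 CPM in iTreg KO, against 245 to 267 CPM and 83.3 to 90.5 CPM with the WT label. Both genes were lower in iTreg under both labels, and by less with the KO label.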

How the data were processed

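RNA-seq gene counts were taken from 12 libraries, 3 in each of 4 groups. Whole-number counts per gene symbol were deposited by the authors as 1 file per library, and the submitters' processing notes name cutadapt 1.13, STAR, HTSeq 0.6.1p1, DESeq2 and the mouse build mm10, without roles. The annotation and the strand setting are not given in the sources used here, so reads of overlapping and antisense genes cannot be told apart. Each file lists 23337 symbols, and filterByExpr (minimum count 10, minimum total 15) left 12038 genes.

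All 12 libraries were fitted with edgeR 4.0.16 (TMM normalisation, robust quasi-likelihood fit, 1 term per group, 8 residual degrees of freedom; R 4.3.3), with Benjamini-Hochberg adjustment over all genes tested and a threshold of 0.05. The test against a fold of 2 used glmTreat. Folds against a group with no read used a floor of 3 counts over the group. The label difference is the KO contrast minus the WT contrast, and the 2 contrasts share no library. Deviations from group means were correlated to check pairing. Same-numbered nTreg KO and iTreg KO libraries had r of -0.047, -0.039 and 0.095, and so are not treated as pairs. The labels give WT and KO libraries the same numbers. Within a cell type, same-numbered libraries had r of 0.572, 0.511 and 0.438 in nTreg and 0.307, 0.334 and 0.629 in iTreg. The blocked label difference is therefore given for some of the genes whose call it changed. Some named genes were called with the block and not in the same fit without it, and are given without it. Among them are Cdkn1a, Cdc20, Espl1, Kif11, Smad3 and Cxcr5. Code was tested on simulated data.

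Named genes are Syvn1, the 15 largest rises and 15 largest falls (adjusted p under 0.05, mean log2 CPM of at least 3, no overlap between groups; predicted genes, Rik symbols, antigen receptor segments, Xist and Y-linked genes left out), up to 4 genes of smallest p per list with its members moving the other way where 5 or fewer, up to 8 genes each way for the label difference, and 25 regulators and markers. Other genes in the text were chosen after their values were seen. Some regulators and markers are not reported here. Members and gene lists were chosen with earlier results of these data known. Alternatives were RLE normalisation, DESeq2 1.42.0, limma 3.58.1 with voom weights, other filters, blocks, thresholds, thinning and left-out libraries. Promoter sequences and starts are from RefSeq (GRCm38.p6), and other coordinates from the reference annotation of that build. Counts have counting error, which is larger at low CPM.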

Additional observations from a re-analysis of the deposited data

Results flagged for a closer look

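For 35 genes the test of the label difference itself was past the threshold, so the iTreg against nTreg contrast differed between KO-labelled and WT-labelled libraries (log2 KO contrast minus WT contrast, adjusted p 4.21e-05 to 0.0398, edgeR, 3 libraries a group). Among genes of the ER stress branches and their surroundings the differences were Atf5 -4.15, Xbp1 -1.55, Trib3 -3.75, Herpud1 -1.18, Derl3 -3.06, Canx -0.99 and Nupr1 -9.19, the last with no read in nTreg WT, so that its fitted size is no measure. In secretory transport and glycosylation, Tmed10 stood at -1.02, Surf4 at -0.81, Bet1 at -1.25 and Dpagt1, the first enzyme of N-glycan assembly, at -1.05. Amino acid genes were Slc6a9 at -4.57, Slc1a4 at -3.98 and Bcat1, a branched-chain aminotransferase, at -1.56. Snd1 was at -1.11, Larp1b at -0.78, the elongation factor kinase Eef2k at -1.35, Cks1b at -1.41, Tube1 at -1.41 and Morf4l2 at -0.73.

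The remaining differences below 0 were Vegfa -6.13, Enah -3.79, Thrb -2.65, Soat2 -2.42, 4921525O09Rik -2.40, Igsf3 -2.35, Prkar1b -2.21, Mmp11 -1.93, Chchd10 -1.87, Clic4 -1.37, 1110021J02Rik -1.09, AI662270 -0.86 and Cmtm7 -0.73. The differences above 0 were Gbp10 1.69 and Camk4 0.81. All 35 were also called in the fit blocked on the replicate number.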

How the results depend on the processing

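For iTreg against nTreg, KO label, 3 libraries a group, the test against a fold of 1.5 called 3939 genes (2034 higher, 1905 lower) where the test against 0 called 7451. For the WT label it called 4489. The KO calls also called the same way with the WT label were 3518 (6682 against 0). It called 3 genes lower with the KO and higher with the WT label, and 6 for the label difference. No other alternative moved the KO and WT counts by over 1.5 times, and leaving out 1 library gave 6608 to 7750 KO calls. The 18 genes lower with the KO and higher with the WT label became 10 without a filter, 10 in fits of each label's 6 libraries alone, 9 in those fits with a replicate block, 9 without the nTreg libraries numbered 2, and 10 to 22 without 1 library.

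The 35 calls for the label difference became 140 with DESeq2, 103 with limma voom, 217 with the replicate block within each cell type, 22 with libraries thinned to the smallest total, 7 without all libraries numbered 3, 1 without the nTreg libraries numbered 2, 14 without both KO-labelled libraries numbered 2 (added after the data were seen), and 1 to 58 without 1 library. The cause of these changes was not tested. The same-numbered nTreg KO and iTreg KO libraries share only a number, and for iTreg against nTreg, KO label, a replicate block across cell types gave 7680 calls. The Nrp1 KO log2 fold change ran from -0.53 to 0.25 without 1 library, and changed sign, to 0.25, without iTreg KO replicate 2. Of 224 named genes called with the KO label, 203 were called in each fit that left out 1 KO-labelled library, and DESeq2 called all 224. Other scalings moved the median of all genes by at most 0.012 in size. Genes under a few CPM, such as Il2, Cd40 and Il9, rest on few reads.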

Other observations

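Markers of cytotoxic and natural killer cells moved in both directions. Of 7 tested CD8 T cell markers 4 were higher in iTreg KO (57.1%) and 1 lower (14.3%). Of 7 natural killer markers 2 were higher (28.6%) and 3 lower (42.9%). Over all genes, 32.1% were higher and 29.8% lower, and sets of 7 are too small to set apart from those shares. Klrd1, a chain of the CD94-NKG2 receptors, was at 0.348, 0.063 and 0.108 CPM in nTreg KO and at 51.6, 29.6 and 22.6 CPM in iTreg KO (log2 change 7.74, adjusted p 1.17e-06, edgeR). Klrc1, its partner chain, was at 0 to 0.252 CPM against 5.07 to 19.7 CPM. The co-receptor gene Cd8b1 was lower, from 13.9 to 17.0 CPM to 3.81 to 6.23 CPM, while Cd8a was higher (2.06). The cytotoxic genes Prf1 (0.39) and Gzma (1.37) were not called, and Klrb1c, which encodes NK1.1, was lower (-6.15). Whether these reads came from other cells was not tested.

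Cell cycle entry genes gave a mixed picture beside the uniform rise of the replication genes. Cdk4 (1.29), Ccnd3 (0.81), Cdkn2c (0.93) and Cdkn2d (0.67) were higher, Cdkn1c (-3.15) and Rb1 (-0.47) lower, and Ccnd2 (-0.32) and Cdk6 (-0.48) were not called. The Rb1 call was lost in some fits that left out 1 KO-labelled library.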
